A study of Mus musculus with 4 samples.

Results

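The 10 genes described here encode the contractile apparatus of smooth muscle and the factor that switches it on: Acta2, Actg2, Myh11, Tagln, Cnn1, Myocd, Smtn, Lmod1, Des and Synpo2. They were taken by name from 18194 genes named on the arrays, with all 18 probe sets that carry a member's symbol, 14 on the Affymetrix design MOE430A and 4 on MOE430B. Messenger RNA was measured in fetal mouse lung at E18.5, shortly before birth, in BALB/c wild type embryos and in BALB/c embryos null for both Myf5 and Myod1 (labelled Myf5-/-:MyoD-/-, here double knockout). Myf5 and Myod1 encode the transcription factors that commit cells to skeletal muscle, and the title of the series names the part of skeletal muscle in lung development as its question. Each genotype had 1 array per design, 4 arrays in all. With 1 array per group no test was possible, so no p-value is given and the number of arrays limits the precision of every value. The labels do not say whether an array held RNA of 1 embryo or of several, or whether MOE430A and MOE430B received the same RNA.

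Smooth muscle cells wrap the fetal airways and the larger lung vessels, and the airway layer contracts spontaneously before birth. Actin filaments (Acta2, Actg2) slide along the smooth muscle myosin Myh11, while Tagln, Cnn1, Smtn and Lmod1 bind and shape the actin filaments, and Des and Synpo2 belong to the scaffold that holds the apparatus in the cell. Most of these genes are activated by serum response factor (SRF), which binds a sequence called the CArG box, with the cofactor myocardin, the product of Myocd.

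The start regions of 6 members were held in the RefSeq promoter table (build GRCm38.p6), as windows of 300 bases around the annotated start on the gene's own strand, and they are shown because the CArG box is the sequence that the members' common activator reads. An exact CArG box, which reads the same on both strands, was in none of the 6 windows and in 1.63% of all 32851 windows of the table. Allowing 1 letter to differ, 21.1% of all windows held a match, and among the members Acta2 and Lmod1 did, with 2 matches each that did not overlap. Those of Acta2 were CCCTATATGG at positions 167 to 176 and CCTTGTTTGG at positions 217 to 226 of the window. Those of Lmod1 were CTTTAAAAGG at positions 62 to 71 and CTAAATTTGG at positions 87 to 96. The sequence CATTCC, the core of the MCAT element of muscle genes, was found on either strand in the windows of Acta2, Lmod1 and Smtn, and in 14.7% of all windows; it overlapped no CArG match. The windows of Cnn1, Des and Synpo2 held none of these letters, which says nothing of sites outside the window. The windows of Acta2 (chr19:34255324-34255623, minus strand), Lmod1 (chr1:135324563-135324862, plus strand) and, for a member without a match, Des (chr1:75360042-75360341, plus strand) read as follows, 5′ to 3′, with the CArG matches in capitals.
Acta2: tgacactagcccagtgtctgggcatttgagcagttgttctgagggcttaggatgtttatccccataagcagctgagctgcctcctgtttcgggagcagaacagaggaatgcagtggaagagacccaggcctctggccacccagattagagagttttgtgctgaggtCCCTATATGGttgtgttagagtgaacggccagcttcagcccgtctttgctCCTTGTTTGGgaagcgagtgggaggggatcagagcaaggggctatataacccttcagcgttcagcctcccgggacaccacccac
Lmod1: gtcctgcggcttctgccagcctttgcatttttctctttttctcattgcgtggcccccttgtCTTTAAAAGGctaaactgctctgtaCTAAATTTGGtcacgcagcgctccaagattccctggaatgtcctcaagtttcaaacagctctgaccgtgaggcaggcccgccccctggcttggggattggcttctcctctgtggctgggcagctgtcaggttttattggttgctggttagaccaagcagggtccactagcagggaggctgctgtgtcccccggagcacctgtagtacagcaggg
Des: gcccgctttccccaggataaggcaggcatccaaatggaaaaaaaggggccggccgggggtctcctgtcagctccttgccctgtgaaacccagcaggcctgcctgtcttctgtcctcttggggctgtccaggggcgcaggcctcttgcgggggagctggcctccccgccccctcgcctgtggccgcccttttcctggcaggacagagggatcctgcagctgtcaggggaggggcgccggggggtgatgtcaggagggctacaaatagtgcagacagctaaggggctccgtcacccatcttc

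A signal is given for each probe set in the MAS5 unit of the deposited table, first for wild type and then for double knockout, the latter divided by 1 factor per design (1.004 and 1.008) that set the median ratio of the design to 1. The filter that a probe set had to pass with its higher signal was the median of the design (787.4 for MOE430A, 855.1 for MOE430B). The floor was the 25th percentile (283.8 and 278.1). Of the 18 probe sets of the members, 13 passed, 2 lay between floor and filter and 3 were below the floor on both arrays of their design. No array was repeated. The 100 probe sets that both designs carry gave an SD of 0.245 for 1 log2 ratio, called the spread here. The ratios of those probe sets were also shifted by a mean of -0.22 on MOE430B against MOE430A. The spread cannot be taken as a measure of variation between embryos. Ratios also varied more at low signal. On MOE430A their SD over passing probe sets was 0.649 at a mean log2 signal of 9 to 10 and 0.353 at 11 to 12.

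In the lungs labelled double knockout, the actins Actg2 and Acta2 read higher. Tagln, Cnn1 and Smtn read slightly higher and Myocd slightly lower, while the direction of Des and Synpo2 turned with the probe set. Of the 9 members with a passing probe set, each taken by its MOE430A probe set with the highest signal, 7 had a ratio above 1, against 49.3% of the 12559 genes measured. The median log2 ratio of the 9 was 0.25, with a range from -0.25 to 0.64, and the median of all genes was -0.01. For Myh11 and Synpo2, 2 of the 7, only the double knockout signal reached the filter, so that a ratio above 1 was fixed by the filter. With both arrays required to pass, an alternative chosen after seeing the data, 8 members were measured, Synpo2 by MOE430B in place of MOE430A. Of these 5 had a ratio above 1, against 48.9% of 10875 genes, and their median was 0.23. By the first choice of probe set Actg2 alone was higher by 1.5-fold or more, as were 9.4% of all genes. No member was lower by 1.5-fold or more, as were 9.45% of all genes. No member reached 2-fold in either direction, which 3.89% of all genes exceeded upward and 3.63% downward. The log2 ratios of 5 members were above 0.245, Synpo2 among them, a size that 25.8% of all genes passed, and 1 member, Myocd, was below -0.245, as 26.1% of all genes were. By these probe sets the differences of the members other than both actins were thus within the spread of 1 ratio or just above it. Over single probe sets of MOE430A, 11 of the members passed. Past 1.5-fold, 1 of the 11 was higher (Actg2) and 1 was lower (a second Myocd probe set), against 6.38% and 7.31% of all passing probe sets of the design. That Myocd probe set passed through the wild type signal alone. On MOE430B 2 member probe sets passed, both of Synpo2. In whole lung RNA, a change in the number of smooth muscle cells and a change in the RNA of each cell cannot be told apart.

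**Figure D1:**
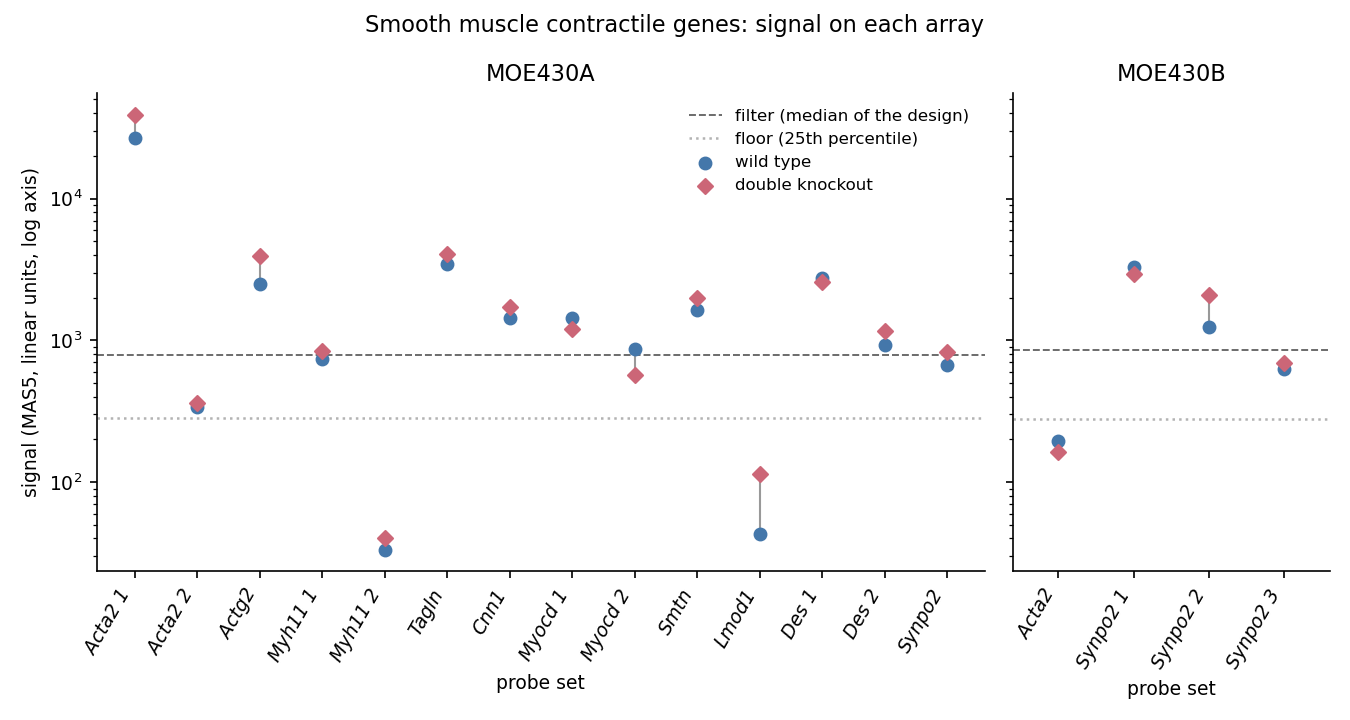
Signal of each probe set of the 10 genes on the wild type array (circles) and the double knockout array (diamonds) of each design, on a log axis; probe sets of 1 gene are numbered from the highest signal, the dashed line is the filter and the dotted line the floor. The gap is widest among passing probe sets for Synpo2 on MOE430B, Actg2 and the dimmer Myocd probe set, and Lmod1, the second Myh11 probe set and the MOE430B probe set of Acta2 lie below the floor on both arrays.

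Acta2 encodes the alpha actin of smooth muscle, which myofibroblasts also make. Its probe set with the suffix _s_at, which marks probes shared with other transcripts, read 26822 in wild type and 38726 in double knockout, 1.44-fold higher with a log2 ratio of 0.53. That lies in the top range of signals on MOE430A, where ratios in general sat above 1. The 183 probe sets within 0.5 of its mean log2 signal had a median log2 ratio of 0.15 (SD 0.267), and 6.56% of them had a ratio as high as that of Acta2 or higher. Relative to that median Acta2 was 0.38 higher on the log2 scale. Its log2 ratio was 0.40 both with a loess curve removed and with quantile normalization, which take out trends with signal. A second Acta2 probe set read 340.4 and 363.2, between floor and filter, with a log2 ratio of 0.09. The Acta2 probe set on MOE430B read 195.3 and 162.5, both below the floor. The difference in Acta2 thus rests on 1 of its 3 probe sets.

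Actg2 encodes the gamma actin of smooth muscle, best known from the gut wall. Its single probe set read 2509 in wild type and 3912 in double knockout, 1.56-fold higher with a log2 ratio of 0.64. Probe sets of like signal on MOE430A, 2583 in number, had a median of 0.00 (SD 0.349), and 2.79% of them had a ratio as high or higher. Over its alternatives the log2 ratio of Actg2 stayed between 0.63 and 0.66, although the alternative without probe sets that may cross-hybridise gave no value because its name ends in _a_at.

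The mammalian actins differ at few residues, and their messenger RNAs resemble one another over the coding part, so the other actins are given beside these values. Actb and Actg1, the actins of all cells, read 1.30-fold and 1.21-fold higher in double knockout, with log2 ratios of 0.37 and 0.27. The other probe set of Actb read 2.83-fold higher. Actc1, the cardiac actin, had 0.28. Acta1, the skeletal actin, read 6305 and 3809, 1.66-fold lower. With a loess curve removed Actb and Actc1 had log2 ratios of 0.16 and 0.10, against 0.40 for Acta2 and 0.64 for Actg2. With quantile normalization Actb and Actc1 had 0.03 and 0.04, against 0.40 for Acta2 and 0.65 for Actg2. The whole list of relatives of the members, 17 of 19 measured, had a median of -0.11 with 8 genes above 1, though 0.15 on MOE430A alone, and its lowest bright genes by the rule for named genes were Acta1 and Synpo2l, a relative of Synpo2 in striated muscle (-0.47, but -0.66 to 1.08 over 4 probe sets). How much of the signal of a member came from another actin was not tested.

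Myh11 encodes the smooth muscle myosin heavy chain, the most specific protein of differentiated smooth muscle among the members. One probe set read 741.0 in wild type and 841.9 in double knockout, a log2 ratio of 0.18, within the spread of 1 ratio. It passed through the double knockout signal alone, the wild type signal being below the filter of 787.4. The other probe set read 33.3 and 40.4, both below the floor. The defining myosin of the cell type was therefore close to the filter in both lungs. Of the non-muscle myosins Myh9 had 0.54, with -0.58 to 0.54 over its 4 probe sets, and Myh10 had -0.22.

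Tagln, Cnn1 and Smtn, whose proteins bind the thin filament, had ratios close to one another. Tagln, or SM22, an actin cross-linking protein, read 3481 in wild type and 4049 in double knockout, a log2 ratio of 0.22. Cnn1, calponin, which restrains the myosin ATPase, read 1441 and 1715, a log2 ratio of 0.25. Smtn, smoothelin, a protein of contractile smooth muscle cells, read 1644 and 1976, a log2 ratio of 0.27. The 3 genes were read by 1 probe set each, and each ratio was close in size to the spread of 0.245. Of probe sets of like signal, 21.7%, 21.2% and 20.1% had ratios as high as these or higher. Their log2 ratios lay between 0.20 and 0.29 under every alternative that gave a value.

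**Figure D2:**
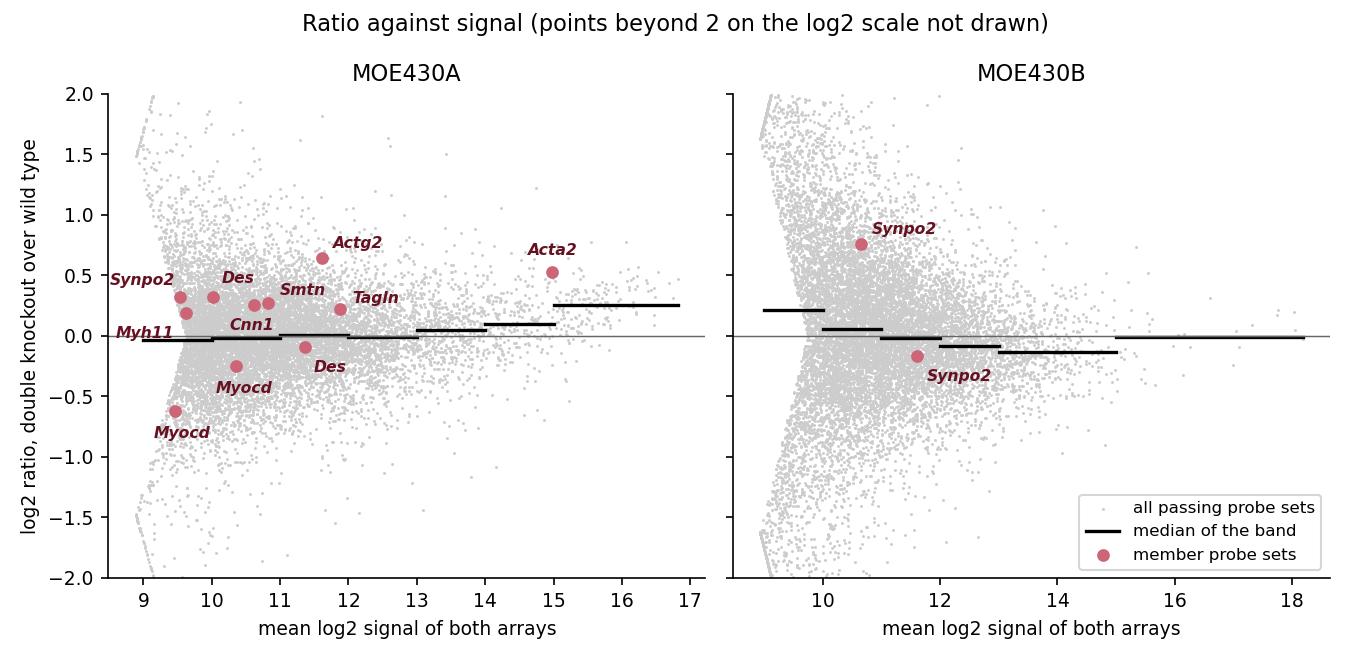
Log2 ratio of double knockout over wild type against the mean log2 signal of both arrays, for all passing probe sets (grey), members (red, named) and the median of each band of signal (black bars). On MOE430A the members other than Myocd and 1 Des probe set lie above 0, and the band medians rise to 0.25 at the highest signals. Acta2 lies in the band below, from 14 to 15, with a median of 0.09.

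Des encodes desmin, the intermediate filament of all muscle types, and its 2 passing probe sets had ratios on either side of 1. The one with the higher signal read 2731 in wild type and 2562 in double knockout, a log2 ratio of -0.09. The other read 928.0 and 1156, a log2 ratio of 0.32. The ratios differ by 0.41 on the log2 scale, and the difference between 2 passing probe sets of a gene on MOE430A had an SD of 0.535. No direction can be given for Des.

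Synpo2 encodes synaptopodin 2, an actin-bundling protein of the Z-disc and of smooth muscle dense bodies, and it is the member with the most probe sets. On MOE430A it read 667.8 in wild type and 831.0 in double knockout, a log2 ratio of 0.32, passing through the double knockout signal alone. On MOE430B 3 probe sets read 3294 and 2939, 1236 and 2086, and 631.7 and 686.9, the last below the filter. Their log2 ratios were -0.16, 0.75 and 0.12. The ratio of 0.75, or 1.69-fold, was the largest of any passing member probe set. On MOE430B 18.6% of passing probe sets were at least 1.5-fold higher, and 10.2% of those of like signal had a ratio as high or higher. The Synpo2 probe sets thus spanned 0.92 on the log2 scale, and the sign turned with the probe set. On MOE430B the difference between 2 passing probe sets of a gene had an SD of 1.02.

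Myocd, which encodes myocardin, was the member with the lowest ratio by the first choice of probe set. One probe set read 1427 in wild type and 1202 in double knockout, a log2 ratio of -0.25. The other read 871.7 and 565.6, a log2 ratio of -0.62, or 1.54-fold lower. It passed through the wild type signal alone, so that a ratio below 1 was fixed by the filter. Of probe sets of like signal, 26.3% had a ratio as low or lower for the first and 13.7% for the second. Acta2, Tagln, Cnn1, Smtn and Actg2, genes that myocardin activates, had ratios above 1. Among the other members the direction of Des and Synpo2 turned with the probe set, and that of Myh11 was fixed by the filter. Myocd is also active in heart muscle, whose markers are given with those of other cells.

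Lmod1 encodes leiomodin 1, which starts actin filaments in smooth muscle. Its only probe set read 43.1 in wild type and 113.8 in double knockout. As neither reached the floor of 283.8, no fold is given. Of its relatives in striated muscle Lmod2 read 1054 and 568.5, a log2 ratio of -0.89, and Lmod3 had -0.46.

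Other genes of the contractile apparatus had mostly small ratios above 1. Of 28 genes listed for the apparatus and its anchorage 26 were measured, all by both arrays, 20 with a ratio above 1 beside the 49.3% of all genes. Past 1.5-fold, 4 were higher and 1 was lower, beside 9.4% and 9.45% of all genes. Their median log2 ratio was 0.14, against -0.01 for all genes, and it fell to 0.05 without probe sets that may cross-hybridise and to 0.08 as the median over probe sets. Myl9, the regulatory light chain of smooth muscle myosin, had 0.15, and Mylk, the kinase that switches it on, had 0.29, with -0.32 to 0.32 over 3 probe sets. Tpm1, a tropomyosin, and Cald1, caldesmon, had 0.00 and -0.03, with -0.16 to 0.46 and -0.17 to 0.46 over their probe sets. The highest values by the rule for named genes were those of Tpm2, another tropomyosin (1.63, but 0.07 and 0.35 by its other passing probe sets), and Itga8, an integrin of smooth muscle and fibroblasts (0.82 and 0.77 by its probe sets). The lowest by that rule, which takes bright probe sets, were those of Ldb3, a Z-disc protein (-0.46), and Pdlim5 (-0.17, with -0.68 to -0.17 over its probe sets). Pdlim3, a protein of the Z-disc named here after its value was seen, was the lowest of the list at 1504 and 874.3, 1.72-fold lower.

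Genes that control contraction did not lean either way. Of 20 listed genes for calcium entry, myosin phosphatase, cyclic GMP signalling and related control 18 were measured, 10 with a ratio above 1 and 8 below, with a median of 0.00. Camk2g, a calmodulin-dependent kinase, had 0.66 but -0.02 by its other probe set, and Pde5a, which breaks down cyclic GMP, had 0.50 with -0.03 to 0.87 over 3 probe sets. Ppp1r12a, the targeting subunit of myosin phosphatase, had -0.41, with -0.61 to -0.06 over 4 probe sets. Rock1 of the same list had -0.12, with -0.62 to -0.12 over 3 passing probe sets. SRF and its cofactors and modulators had a median of 0.03 over 16 genes, 9 above 1. The probe sets of Srf itself had 0.06 and -0.80. Mrtfa, a myocardin-related cofactor, had -0.28, Fhl2 had -0.51, and the T-box factors Tbx4 and Tbx5 of lung mesenchyme had 0.40 and 1.46, the latter 0.61 by its other probe set. Of 19 receptors of smooth muscle 7 were measured, 5 of them with a ratio below 1 and a median of -0.07. Tbxa2r, the thromboxane receptor, had -0.62, and Agtr1a, an angiotensin receptor, had -0.03. Ednrb, an endothelin receptor, had 0.12 and -0.04 on MOE430A but -0.31 on MOE430B, where it read 16489 and 13312. Signals of the designs cannot be set side by side, as the shared probe sets read a median of 4.28-fold higher on MOE430B in wild type.

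**Figure D3:**
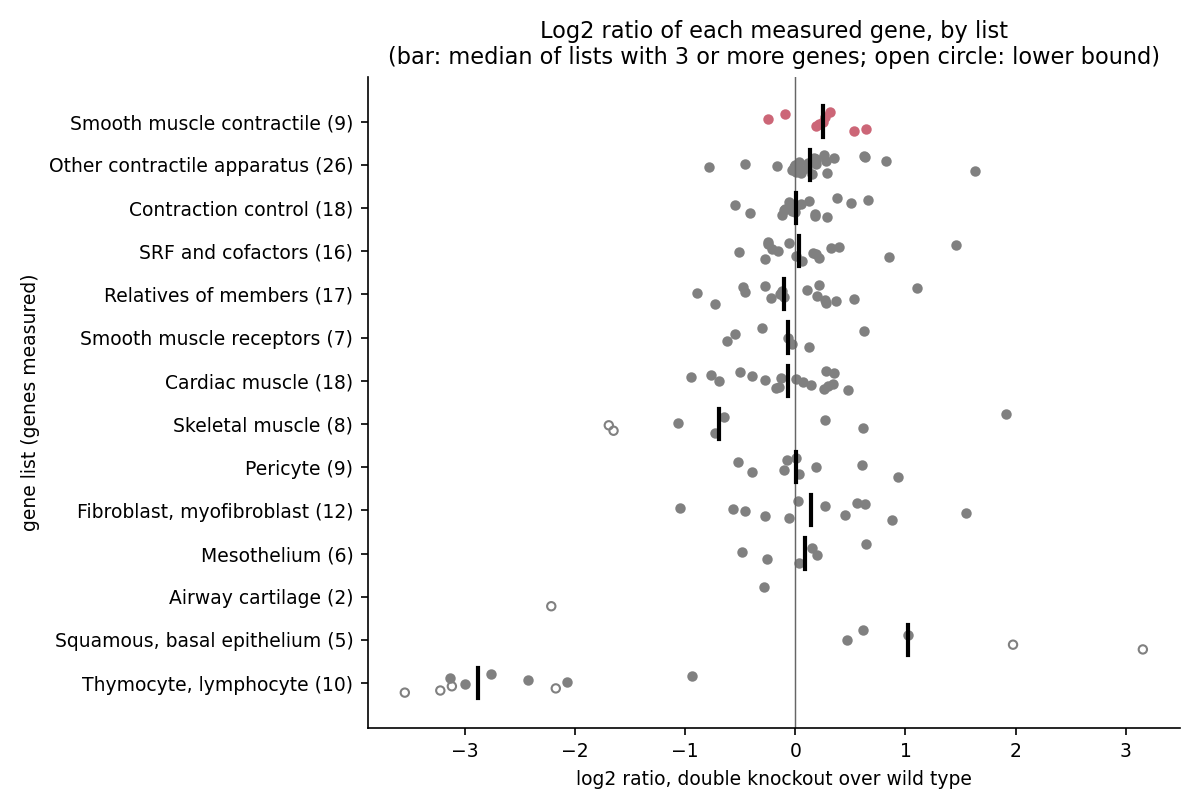
Log2 ratio of double knockout over wild type for each measured gene of the smooth muscle contractile set (red) and of the other lists (grey), with the median of lists of 3 or more genes as a bar; open circles are lower bounds, where 1 signal was below the floor. The smooth muscle genes centre on 0.25, cardiac, pericyte and control lists lie around 0, squamous epithelium genes lie above 0 and lymphocyte genes far below, most of both having passed the filter by 1 array alone.

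Several members are also made by cells other than smooth muscle, so markers of those cells were read on the same arrays. Heart muscle, which makes Des and Myocd and, before birth, Acta2 and Tagln, was strongly represented. All 18 cardiac markers were measured, 9 with a ratio above 1, none below the floor on either array, and their summed MOE430A signal was 417067 in wild type and 444462 in double knockout. Their median log2 ratio was -0.07, with Myl2, the ventricular light chain, at 0.47 and Actc1 at 0.28. Under the scalings that remove trends with signal both were lower. Myl2 and Actc1 had 0.27 and 0.10 with a loess curve removed, and 0.09 and 0.04 with quantile normalization. Of 21 skeletal muscle markers 8 were measured, with a median of -0.69 over 5 lower and 3 higher genes. Of the 8, 2 passed through the wild type array alone and 2 through the double knockout array alone, so that their direction was fixed by the filter. Among the 4 that passed on both arrays 3 were lower and 1 was higher. On MOE430A 6 of 18 were below the floor in wild type and 10 in double knockout, and the sums were 49096 and 50237, most of it Ckm, which heart also makes (35417 and 42727). Pericyte markers, of the mural cells of small vessels, had a median of 0.01 over 9 of 10 genes, and sums of 17944 and 19306, with Mcam at 0.19 and Notch3 at -0.10 (0.20 by its other probe set). Fibroblast and myofibroblast markers had a median of 0.15 over 12 genes, 7 above 1, and sums of 111858 and 131663, with Mfap4 at 0.56 and Eln, elastin, at 0.02 (-0.26 by its other probe set). The part of these cells in the values of the members was not tested.

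Markers of other tissues were also read, some of which adjoin smooth muscle in the large airways and the oesophagus, and some lists differed between the arrays. Of 8 genes of squamous and basal epithelium 5 were measured, 3 of them past 2-fold higher in double knockout. Of the 5, 4 passed through the double knockout MOE430A array alone, so that their ratio above 1 was fixed by the filter, and the count is no support. The genes that did not pass had 518.2 and 364.1 (Sprr3), 467.2 and 246.7 (Trp63, by 1 of its 4 probe sets) and 543.4 and 578.3 (Krt14), and with no filter the median log2 ratio of the list went from 1.03 to 0.56. Their summed MOE430A signal was 4332 in wild type and 9237 in double knockout. Krt4, a keratin of the oesophagus lining, read 117.0 and 2525, at least 8.90-fold higher, and 3053 and 8963 on MOE430B. Krt15, a basal cell keratin, read 1244 and 2534. A Krt13 probe set on MOE430B went the other way, with 863.7 and 580.3. Of 9 cartilage genes 2 were measured, Col2a1 at 1317 and 106.9, at least 4.64-fold lower, and Col9a1 with log2 ratios of -0.29 and -1.14. Col2a1 passed through the wild type array alone, so that its direction was fixed by the filter. Its log2 ratio went from -2.21 to -0.74 with the floor at the median. Cartilage genes that did not pass went both ways, with 549.7 and 686.3 for Acan and 505.3 and 365.3 for Comp. The sums were 5159 and 3790, with 3 genes below the floor on each array. Mesothelium markers, of the lung surface, had a median of 0.09 over 6 of 8 genes, with sums of 13240 and 13743, Krt19 at 0.15 and Upk1b at 0.20, though its 3 other probe sets had -1.44 to -0.06. Thymocyte and lymphocyte markers were lower in all 10 measured genes. Of the 10, 9 passed through the wild type array alone, so that their ratio below 1 was fixed by the filter, and the count is no support. With both arrays required to pass, 2 genes were measured, both lower, with a median of -0.62. The sums of the list were 27630 and 3268, with Thy1 at -2.99 and Themis at -0.94. Whether such tissues were held with the lungs in different amounts, and how far that bears on the smooth muscle values, was not tested.

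The lung origin of the RNA showed in the surfactant protein gene Sftpc (78525 and 113337) and the club cell gene Scgb1a1 (11774 and 20128), named after their values were seen. Of the targeted genes, the Myf5 probe set read 110.5 and 8.94, both below the floor. The Myod1 probe set of MOE430A went against the label, with 85.0 for wild type and 1081 for double knockout as labelled, and that of MOE430B read 337.2 and 607.2, below the filter. The labels do not say whether these probe sets lie in the deleted parts, and one outside them checks nothing. Every direction above therefore rests on the labels, and double knockout stands for the arrays labelled so.

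**Figure D4:**
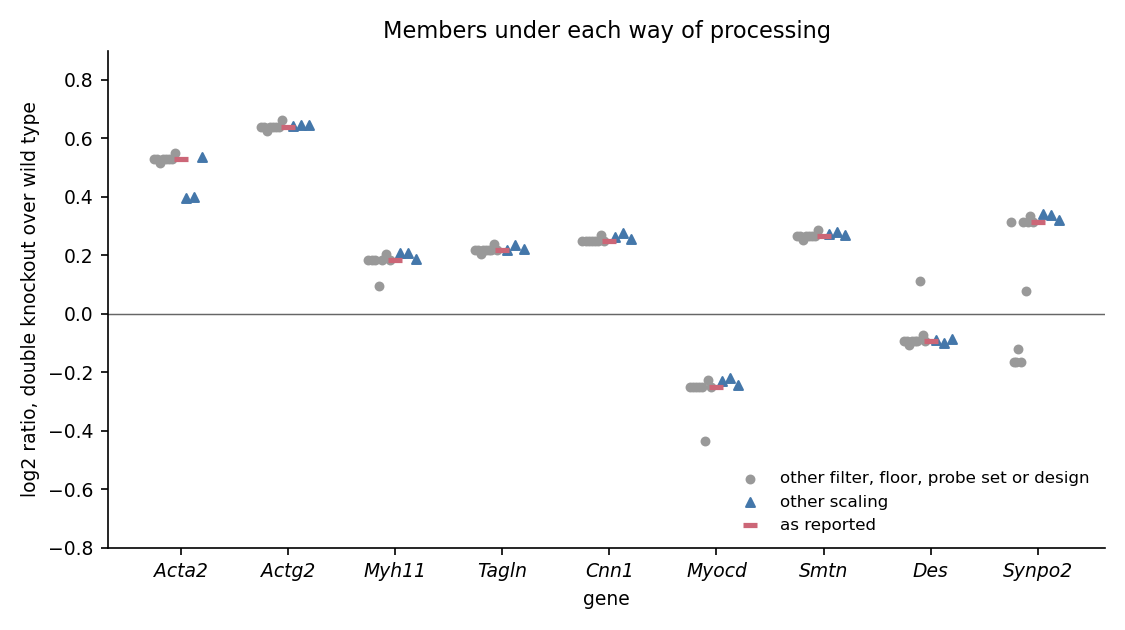
Log2 ratio of each measured member as reported (red bars), under other scalings (blue triangles) and under other choices of filter, floor, probe set or design (grey points). Actg2 stays between 0.63 and 0.66, Acta2 drops to 0.40 under the scalings that remove trends with signal, and Synpo2 and Des cross 0 with the choice of probe set.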

How the data were processed

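Total RNA (6 µg per array, Trizol) of E18.5 lung was labelled with biotin and hybridised to MOE430A and MOE430B arrays, per the labels. The deposited tables hold an intensity for each probe set, on a linear scale, made with MAS5 per the submitters' processing notes. The sources used here name neither its settings nor its detection calls. Each array had a trimmed mean near 1500, so each had been scaled on its own, and ratios were formed only within a design. The 64 control probe sets of each design were dropped. Signals under the floor were set to it, and a ratio with 1 such signal is given as at least N-fold. Gene names came from GEO's annotation of the platforms, and the Entrez identifiers of all 10 members matched RefSeq. Suffixes after the number (_s_at, _a_at, _x_at) mark probes that several transcripts share, which for _a_at may be transcripts of the same gene. The alternative without probe sets that may cross-hybridise left out all of these suffixes by name. A gene was represented by whichever passing MOE430A probe set was highest in mean log2 signal, or by that of MOE430B where MOE430A had none. Genes were counted at 1.5-fold and 2-fold. Ratios of like signal are those of passing probe sets within 0.5 of the mean log2 signal. Members, lists and rules were chosen with earlier results of these data known. Named genes were all members and, by rule, the 2 highest and 2 lowest of each related list whose higher signal reached the 75th percentile and whose signals both reached the floor, or the 2 with the highest signal of each marker list; further names were chosen after their values were seen. The steps were tested on simulated arrays. Python 3.11.15 with numpy 2.4.6, pandas 2.3.3 and statsmodels 0.14.6 was used.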

Additional observations from a re-analysis of the deposited data

How the results depend on the processing

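The median log2 ratio of the members lay between 0.20 and 0.28 in all but 1 of 13 alternatives, 1 of which, the filter passed by both arrays, was chosen after seeing the data. On MOE430B alone it was -0.16, the value of Synpo2, the 1 member measured there, so that 0 members had a ratio above 1 and 0 were at least 1.5-fold higher. With probe sets that may cross-hybridise left out, 6 members remained measured, 4 with a ratio above 1 and 0 at least 1.5-fold higher, since the Actg2 probe set is left out by its name. With the filter at the 75th percentile 4 of 6 measured members had a ratio above 1. No alternative put a member at least 1.5-fold lower. Pairs of probe sets of 1 gene spread more than the shared probe sets, with an SD of 1 log2 ratio of 0.378 on MOE430A and 0.724 on MOE430B, which the ratios of Acta2, Actg2 and the dimmer Myocd probe set on MOE430A and of 1 Synpo2 probe set on MOE430B (0.75) exceeded in size. Over the alternatives the sign turned at least once for 7 other named genes (Agtr1a, Camk2g, Ednrb, Eln, Notch3, Pde5a and Upk1b, whose median over probe sets was -0.25) and for 8 of 12 list medians, all between -0.30 and 0.30 but that of skeletal muscle. Of values past 1.5-fold, 2 turned sign: Camk2g had -0.018 without probe sets that may cross-hybridise, where its other probe set stands for it, and the skeletal muscle median was 0.38 on MOE430B alone. The skeletal muscle median lay between -1.07 and 0.38 over its alternatives. No paired analysis was possible because each group holds 1 array, and for the same reason no array could be left out in turn. Signals near the floor limit Lmod1, Myh11, Synpo2 and the dimmer Myocd probe set.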

Other observations

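Probe sets of 1 gene disagreed beyond the members too, and the genes below were named after their values were seen. Cavin1, a coat protein of the caveolae that are dense in smooth muscle, read 5473 in wild type and 8429 in double knockout by one probe set, a log2 ratio of 0.62. By another it read 1739 and 1046, a log2 ratio of -0.73. Pdgfrb, the PDGF receptor of pericytes and vascular smooth muscle, was the pericyte marker with the highest ratio, 1968 and 3749, 1.91-fold higher by its single passing probe set, while another, below the filter, had a log2 ratio of -0.07. Abcc9 and Rgs5 of the same list had -0.52 and -0.39, although Rgs5 had -0.60 to 0.40 over 4 probe sets. Synpo, the relative of Synpo2 best known from kidney podocytes, read 417.4 and 895.2, 2.15-fold higher by its single passing probe set, which passed through double knockout alone, while another, below the filter, read 703.4 and 549.3. Vim, vimentin, the intermediate filament that smooth muscle shares with other mesenchyme, had 0.10.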
